A study of Mus musculus with 20 samples.

Results

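The levels of 10 genes of endothelial fatty acid handling were followed across endothelial cells sorted from mouse sciatic nerve: Lpl, Gpihbp1, Cd36, Slc27a3, Slc27a4, Fabp4, Fabp5, Pparg, Meox2 and Tcf15. They were chosen by name, with earlier results of these data known, as 10 of the 55376 gene rows of the deposited count tables. All 10 passed the low-count filter in both experiments. The lists below were chosen likewise, so shares set beside those of all genes are descriptions. In the Tomato experiment, adult mice carried a Cdh5(PAC)-CreERT2 driver, active in endothelial cells, and a Cre-dependent R26-TomatoLSL reporter. Tomato-positive cells came from pooled intact nerves (5 libraries) or from injured nerves. The injured nerves were taken after 7 days, written 7 dpi (5 libraries), and after 14 days, written 14 dpi (4 libraries). The Cherry experiment used a Kdr-Cherry reporter at 7 dpi, in 3 control libraries (WT) and in 3 libraries with floxed Plxnd1 removed from endothelium by a Cdh5 CreER driver (KO). One description places the sampled tissue in the bridge that forms at the lesion while the condition labels name a crush, and which injury was made cannot be told from them. CD45-positive cells were removed in every sort, and all 14 Tomato libraries are labelled Plxnd1 WT. The Cherry gate does not depend on recombination, so KO libraries may hold cells that kept Plxnd1. The labels place each library in batch 1133 or 1292, and every group has libraries in both. Nerves were pooled and animals are not named, so the p-values rest on differences between libraries, part of which may be technical.

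Fatty acids reach tissue either as albumin-bound molecules or from triglyceride-rich lipoproteins. On the luminal face of capillaries, GPIHBP1 holds lipoprotein lipase (Lpl), which is made largely by parenchymal cells and releases fatty acids there. CD36 and the fatty acid transport proteins (the Slc27a family, which are also acyl-CoA synthetases) move them into the endothelial cell, and FABP4 and FABP5 bind them in the cytosol. PPARG, a nuclear receptor activated by fatty acids, drives Cd36, Fabp4 and Gpihbp1 in several tissues, and the pair of transcription factors MEOX2 and TCF15 is known to maintain this programme in capillaries of the heart.

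Promoters of the Cd36 and Pparg genes are shown because both genes were higher at 14 dpi and PPARG recognises copies of the hexamer AGGTCA. RefSeq promoters (GRCm38.p6) matched 5 of the 10 genes, with 7 start sites in all; Fabp4, Fabp5, Lpl, Gpihbp1 and Tcf15 were not matched. Windows of 250 bases before to 50 bases after each start were searched on both strands. AGGTCA was found at 3 of the 7 starts, against 16.3% of 32851 promoters of the same length. Of these 3 starts 2 belong to Pparg, so they are not separate genes. The direct repeat of that hexamer with 1 base between the copies, which contains it, was at 0 of the 7 starts and in 0.0396% of all promoters. The E-box CANNTG, bound by factors of the TCF15 class, was at 6 of the 7 starts and in 72.3% of promoters, and the homeodomain core TAATTA was at 0 of the 7 and in 5.29%. The 250 bases before the start are printed below for Cd36 (minus strand, chr5:17835897-17836146) and for the 2 of 3 Pparg starts with a match (plus strand, chr6:115360894-115361143 and chr6:115362099-115362348), on the strand of the gene. Capitals mark the AGGTCA match, which is on the opposite strand in Cd36 and therefore reads TGACCT there.
Cd36 promoter: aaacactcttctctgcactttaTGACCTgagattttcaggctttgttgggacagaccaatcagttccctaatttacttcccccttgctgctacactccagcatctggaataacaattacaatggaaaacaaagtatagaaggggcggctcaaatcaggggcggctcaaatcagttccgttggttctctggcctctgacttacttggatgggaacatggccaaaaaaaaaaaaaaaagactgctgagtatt
Pparg promoter, first start: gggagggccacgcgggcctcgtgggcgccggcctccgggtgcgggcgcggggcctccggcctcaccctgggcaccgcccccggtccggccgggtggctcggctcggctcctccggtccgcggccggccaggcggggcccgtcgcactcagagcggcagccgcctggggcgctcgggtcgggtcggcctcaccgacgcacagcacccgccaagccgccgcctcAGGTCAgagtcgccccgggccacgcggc
Pparg promoter, second start: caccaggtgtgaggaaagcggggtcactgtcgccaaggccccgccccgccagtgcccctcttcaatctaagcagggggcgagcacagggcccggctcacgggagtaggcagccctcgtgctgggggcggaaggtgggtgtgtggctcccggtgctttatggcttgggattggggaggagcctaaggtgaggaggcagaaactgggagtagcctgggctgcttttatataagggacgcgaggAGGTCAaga
The matches begin 228 bases before the Cd36 start used, and 28 and 9 bases before the Pparg starts. That Cd36 start lies inside the annotated gene (chr5:17781690-17888747, minus strand), so it is not the outermost one. The printed Pparg stretches end at 115361143 and 115362348, inside the annotated gene (chr6:115360951-115490399, plus strand), so neither Pparg start is the outermost one. The matches are descriptions of the letters, not measured binding sites.

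Total counts ran from 19057029 to 34181449 per Tomato library and from 19253137 to 33793402 per Cherry library, and levels are given as CPM, each count relative to the library total after scaling with edgeR's TMM method. Plxnd1 was at 349.8, 324 and 343 CPM in WT and at 131.4, 160.5 and 160.1 CPM in KO libraries, with all KO libraries below all WT libraries. Summed over 15 pan-endothelial genes, none of them at 0 in any library, levels were 6536 to 15899 CPM in intact, 9612 to 14452 at 7 dpi and 8572 to 10245 at 14 dpi. Markers of other cells were present in the Tomato libraries. The 9 fibroblast markers summed to 9641 to 17988 CPM in intact, 4495 to 20202 at 7 dpi and 16728 to 36487 at 14 dpi, against 847 to 3321 CPM in Cherry libraries. The 6 perineurial markers summed to 4042 to 6332, 455 to 1253 and 1568 to 3707 CPM in the same Tomato groups, and to 173 to 382 CPM in Cherry. The 15 macrophage markers summed to 451 CPM in 7 dpi replicate 4 and 1599.8 CPM in 14 dpi replicate 3, against 34.8 to 77.1 CPM in the other Tomato libraries. Of 8 adipocyte markers, of interest because fat cells also express Fabp4, Lpl, Cd36 and Pparg, the summed level was 35.2 to 109 CPM in intact, 7.71 to 30.0 at 7 dpi and 16.7 to 36.0 at 14 dpi, so the intact and 7 dpi groups did not overlap, and up to 6 of the 8 were at 0 in a library. Nearly all of that sum was Thrsp, a lipogenic gene (means of 67.6, 13.8 and 26.3 CPM), while the defining gene Adipoq averaged 0.441, 0.777 and 0.402 CPM. The 4 Y-linked genes summed to 0 CPM in 3 of the 5 libraries at 7 dpi, to 0.0291 CPM in another and to 0 CPM in 2 of the 4 at 14 dpi, and to at least 40.1 CPM in all other libraries. In batch 1133, intact replicates 4 and 5 were at 163.6 and 118.4 CPM of Y-linked RNA, and all injured Tomato libraries were at 0 or 0.0291 CPM. In comparisons with intact nerve in batch 1133 alone, injury and Y-linked RNA, a trait of male animals, therefore cannot be told apart. In batch 1292, 7 dpi replicates 2 and 3 were at 0 CPM and replicate 1 at 215.66 CPM. Over both batches injury at 7 dpi and Y-linked RNA were thus partly confounded as well, since every intact library held it. In bulk libraries, fewer cells of a type and less RNA per cell cannot be told apart.

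Per kb of gene length, Fabp4 was the most abundant of the 10 genes in every group and Cd36 the next. In intact nerve Fabp4 averaged 1334 ± 504 CPM per kb (SD, n = 5), a level exceeded by 22 of the 20409 tested genes, and Cd36 301 ± 117 CPM per kb. Meox2 (188.5 ± 26.9 CPM per kb) came next and overlapped Cd36. Gpihbp1 (61.8 ± 15.5), Fabp5 (45.0 ± 16.3) and Slc27a3 (25.3 ± 6.02) followed, and each overlapped the next in this order. The other 4 genes, Pparg (9.60 ± 3.48), Lpl (8.05 ± 3.94), Slc27a4 (7.91 ± 1.75) and Tcf15 (5.70 ± 3.59 CPM per kb), lay below Slc27a3 without overlap, and each overlapped the next. At 7 dpi the order changed in its middle: Gpihbp1 (149 ± 9.76 CPM per kb, n = 5), Fabp5 (149 ± 11.96) and Meox2 (135 ± 9.24) overlapped each other. At 14 dpi Meox2 (212 ± 27.8 CPM per kb, n = 4), Fabp5 (179 ± 49.0) and Gpihbp1 (123 ± 25.7) again overlapped their neighbours in the order. In WT and KO Cherry libraries, normalized separately, Fabp4 averaged 2321 ± 848 and 2378 ± 1090.1 CPM per kb (n = 3 each), while Slc27a4 was lowest at 5.57 ± 0.936 and 5.97 ± 1.39 CPM per kb.

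**Figure D1:**
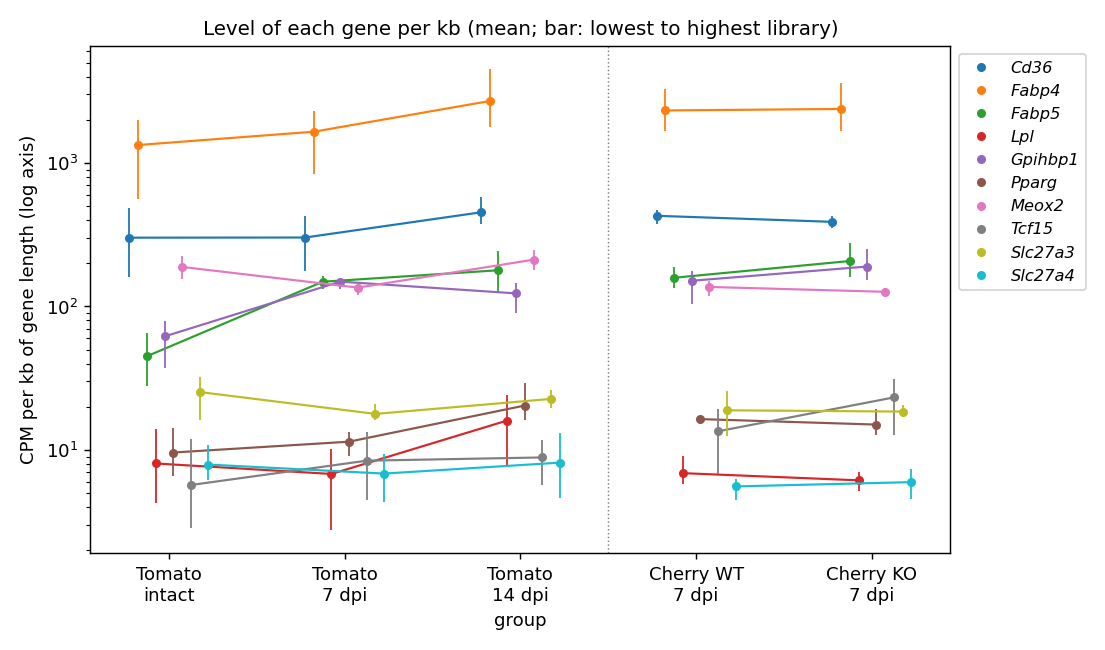
Level of each gene in CPM per kb of gene length (log axis) in the 5 groups; points are means, bars run from the lowest to the highest library, and lines join groups of 1 experiment. Fabp4 and Cd36 lead in every group, and Fabp5 and Gpihbp1 move from 45.0 and 61.8 CPM per kb in intact nerve to 149 CPM per kb at 7 dpi.

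At 7 dpi, 4 of the 10 genes differed from intact nerve at an edgeR quasi-likelihood adjusted p under 0.05: Fabp5 and Gpihbp1 rose, and Meox2 and Slc27a3 fell. Over all tested genes 32.0% were called in this comparison, 15.7% higher and 16.3% lower, so the share among the 10 is close to that background. At 14 dpi, 5 of the 10 were higher than in intact nerve (Fabp5, Gpihbp1, Fabp4, Pparg and Cd36) and none was lower, against 12% of all genes called, 6.86% higher and 5.09% lower. Between 7 and 14 dpi, 5 rose (Lpl, Fabp4, Pparg, Cd36 and Meox2) and none fell, against 9.93% called and 5.73% called higher. The median log2 fold change of the 10 was 0.11, 0.85 and 0.50 in the 3 comparisons, against -0.097, 0.0047 and 0.059 over all tested genes. Groups did not overlap for 3 genes at 7 dpi (21.6% of all genes, 10.9% higher and 10.6% lower). They did not overlap for 3 genes at 14 dpi against intact (9.87% of all genes, 5.14% higher and 4.73% lower) and for 2 between the time points (10.8%, 5.04% higher and 5.79% lower). From 7 to 14 dpi the calls of Cd36, Fabp4, Lpl and Pparg ended without the batch term and within either batch alone. These calls also ended with the fibroblast and perineurial mean or the log2 summed Y-linked level as a covariate. That of Meox2 ended within either batch alone and with the fibroblast and perineurial covariate, and all 5 ended without the 2 libraries of highest macrophage marker level. Both comparisons with intact nerve use the same 5 intact libraries, so their values are set side by side below and not counted as separate evidence.

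**Figure D2:**
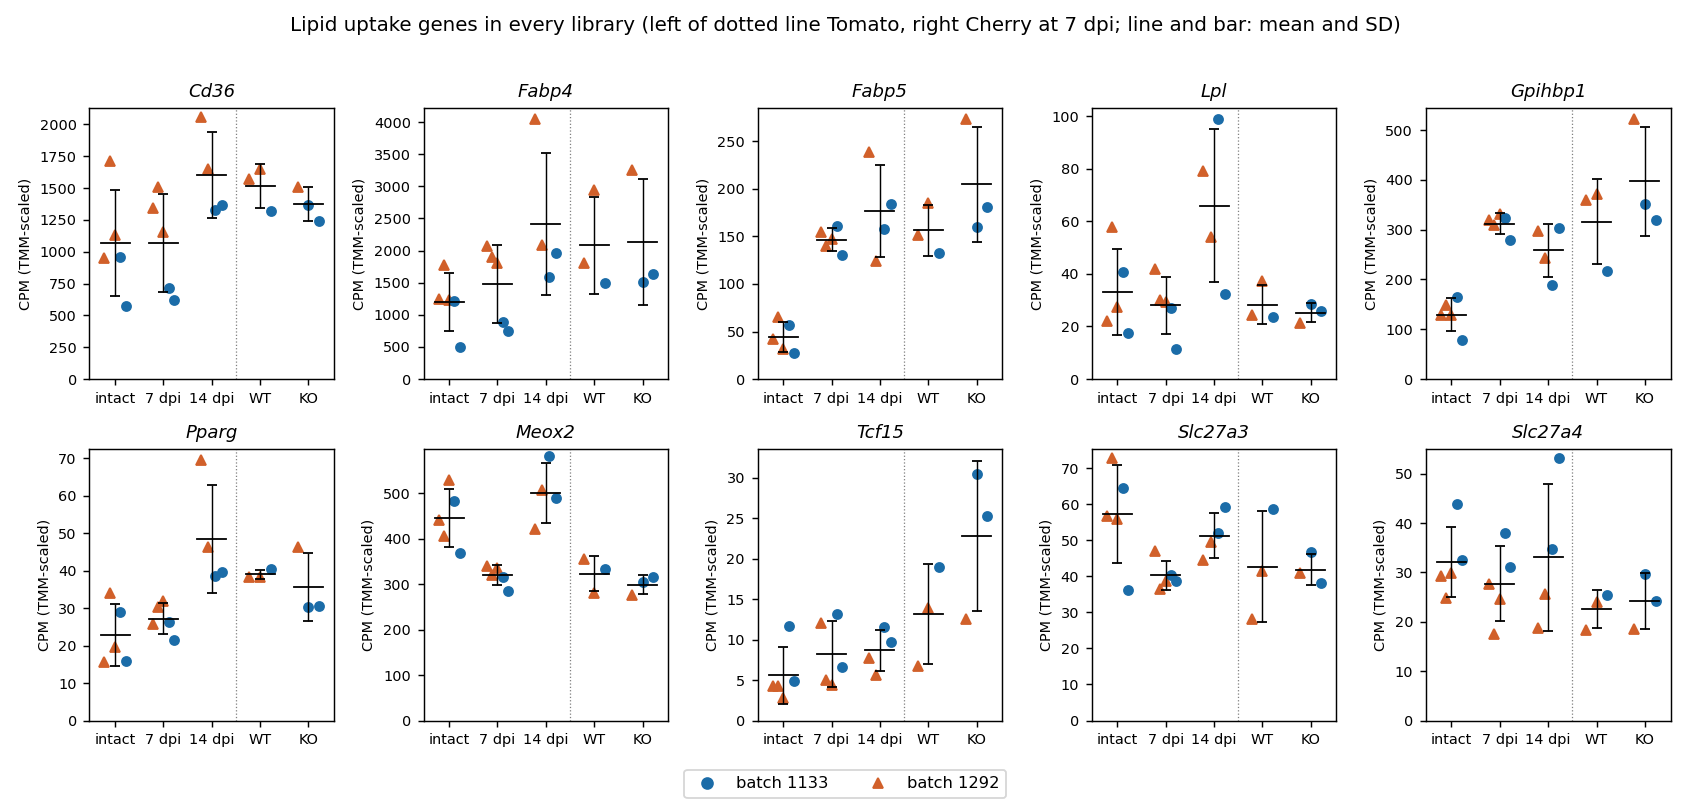
TMM-scaled CPM of each gene in every library (y axis, from 0), by group (x axis); triangles are libraries of batch 1292 and circles of batch 1133, with the mean as a line and the SD as a bar. Fabp5 and Gpihbp1 in the injured groups lie above every intact library, Meox2 at 7 dpi lies below the other Tomato groups, and Pparg at 14 dpi lies above them.

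Gpihbp1, the capillary anchor of lipoprotein lipase, was higher at both times after injury. Its levels were 128, 147.9, 128, 165 and 78.0 CPM in intact replicates 1 to 5, 319, 309, 331, 323 and 279 CPM at 7 dpi and 297, 243, 188.5 and 304 CPM at 14 dpi. Every injured library was above every intact one, and the 7 and 14 dpi groups overlapped. At 7 dpi Gpihbp1 rose by 1.27 ± 0.18 on the log2 scale (SE; edgeR adjusted p = 3.6e-05), or 2.41-fold. At 14 dpi it was 1.01 ± 0.19 (edgeR adjusted p = 0.00153) against the same intact libraries. Between the time points Gpihbp1 changed by -0.26 (95% interval -0.66 to 0.14), which did not pass. The rise was nearly equal in the 2 batches, 1.30 and 1.26 at 7 dpi, although batch 1133 alone, with 2 libraries a group, passed at neither time. With the pan-endothelial mean as a covariate it was 1.09 at 7 dpi and 0.97 at 14 dpi, and both values passed.

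Lpl, the lipase itself, did not rise with its anchor at 7 dpi. It was at 22.1, 57.7, 27.5, 40.7 and 17.7 CPM in intact nerve, then 42.0, 30.1, 29.4, 27.2 and 11.4 CPM at 7 dpi and 79.0, 53.9, 98.8 and 32.3 CPM at 14 dpi. All 3 groups overlapped, and the libraries at 14 dpi varied widely among themselves. The log2 fold change was -0.27 at 7 dpi (95% interval -1.01 to 0.46; edgeR adjusted p = 0.621) and 1.05 ± 0.37 (SE) at 14 dpi against intact, which missed the threshold (edgeR adjusted p = 0.0745). From 7 to 14 dpi Lpl rose by 1.33 ± 0.37 (edgeR adjusted p = 0.0314), or 2.51-fold. That call ended when any of 6 libraries was left out (7 dpi replicates 2 to 5 and 14 dpi replicates 1 and 3), with values of 0.91 to 1.49 over the 9 omissions. The comparison of 14 dpi with intact passed without intact replicate 2, intact replicate 4 or 14 dpi replicate 4, with values from 0.63 to 1.27 over its 9 omissions. Macrophages also make Lpl, and its highest level was in 14 dpi replicate 3, the library with 1599.8 CPM of macrophage markers. With the 2 libraries of highest macrophage marker level left out, the changes were 1.05 from 7 to 14 dpi and 0.60 at 14 dpi against intact, and neither passed.

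Cd36, the scavenger receptor through which capillary endothelium takes up long-chain fatty acids, was not called at 7 dpi and higher at 14 dpi. Intact replicates 1 to 5 held 952, 1712, 1134, 961 and 571 CPM. At 7 dpi the levels were 1342, 1510.0, 1157, 712 and 624 CPM, and at 14 dpi 2056, 1652, 1327 and 1368 CPM. All 3 groups overlapped, while within each batch every library at 14 dpi was above every library at 7 dpi. The share of all genes with that order within batches was not computed. Cd36 depended on batch: over the 14 Tomato libraries it was higher in batch 1292 by 0.74 on the log2 scale (edgeR adjusted p = 0.0055), a difference called for 14.6% of all genes. The log2 fold change with batch in the model was -0.027 at 7 dpi (95% interval -0.42 to 0.37), 0.69 ± 0.20 (SE) at 14 dpi (edgeR adjusted p = 0.0297) and 0.72 ± 0.20 between the times (edgeR adjusted p = 0.0301). The call at 14 dpi against intact ended without intact replicate 1 or without 14 dpi replicate 1, 3 or 4, with values of 0.60 to 0.81 over 9 omissions. The call between the times ended without 7 dpi replicate 3, 4 or 5 or 14 dpi replicate 3 or 4 (0.62 to 0.83). Without the batch term the values were 0.59 and 0.58, and neither passed. The call against intact also ended in each batch alone and with the macrophage, the fibroblast and perineurial, or the Y-linked covariate. It ended as well without the 2 libraries of highest macrophage marker level.

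The fatty acid transport proteins behaved otherwise. Slc27a3 was at 56.7, 72.9, 55.8, 64.4 and 36.3 CPM in intact nerve, then 47.1, 36.6, 38.6, 40.3 and 38.8 CPM at 7 dpi and 44.4, 49.5, 51.9 and 59.2 CPM at 14 dpi. Intact replicate 5 lay below the 7 dpi group, and the other 4 intact libraries lay above it. Slc27a3 fell by 0.50 ± 0.16 on the log2 scale (SE; edgeR adjusted p = 0.0220) at 7 dpi. Without 7 dpi replicate 2 this did not pass, and over the 10 omissions the values ran from -0.64 to -0.41. With the fibroblast and perineurial mean as a covariate it was -0.38 and did not pass. It also did not pass without the low-count filter, in batch 1133 alone or with the Y-linked covariate. Over the 14 Tomato libraries Slc27a3 correlated at 0.72 with the log2 summed level of the adipocyte markers, nearly all of it Thrsp. With the log2 summed level of the perineurial markers it correlated at 0.70. Both lists were lower at 7 dpi than in intact nerve, and the part of the adipocyte list in the result was not tested. Of all marker lists, that of erythrocytes correlated highest with Slc27a3, at 0.76, and its part was not tested either. At 14 dpi Slc27a3 differed from intact by -0.15 (95% interval -0.51 to 0.21). Slc27a4, the other transport protein, ranged from 17.5 to 53.2 CPM over the 14 Tomato libraries, with overlap of all groups. Its log2 fold changes were -0.22 (95% interval -0.59 to 0.14) at 7 dpi, -0.077 (-0.47 to 0.32) at 14 dpi and 0.15 (-0.25 to 0.54) between the times. Unlike Cd36 it was lower in batch 1292, by 0.65 on the log2 scale (edgeR adjusted p = 0.0070).

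Fabp5 had the greatest change of the 10 genes at both times. This cytosolic fatty acid binding protein had intact levels of 41.6, 64.8, 31.5, 56.8 and 27.4 CPM. The injured libraries held 155, 140.2, 147, 161 and 130.7 CPM at 7 dpi and 239, 125, 158 and 184 CPM at 14 dpi. The lowest injured library was well above the highest intact one, and the 2 injured groups overlapped. At 7 dpi Fabp5 rose by 1.73 ± 0.22 on the log2 scale (SE; edgeR adjusted p = 1.7e-05), or 3.31-fold. At 14 dpi it was 2.00 ± 0.24 (edgeR adjusted p = 2.7e-05), or 3.997-fold, against the same intact libraries. From 7 to 14 dpi the change was 0.27 (95% interval -0.22 to 0.76) and did not pass. Both rises passed in all 22 and 21 alternatives run, each batch alone included, with values of 1.49 to 1.90 and 1.78 to 2.17. Macrophages also express Fabp5; without the 2 libraries of highest macrophage marker level, the rises were 1.68 and 2.04, and both passed.

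Fabp4, the adipocyte and capillary family member, rose later. Its levels were 1244, 1774, 1234, 1217 and 504 CPM in intact nerve, then 2064, 1895, 1800.3, 885 and 754 CPM at 7 dpi and 4046, 2087, 1585 and 1959 CPM at 14 dpi. All groups overlapped when the batches were pooled, but within each batch every library at 14 dpi was above all intact and 7 dpi libraries. How many of all genes were ordered so within batches was not counted. Like Cd36, Fabp4 was higher in batch 1292, by 0.92 on the log2 scale (edgeR adjusted p = 0.0055). The log2 fold change was 0.24 at 7 dpi (95% interval -0.25 to 0.73; edgeR adjusted p = 0.498), 1.10 ± 0.24 (SE) at 14 dpi (edgeR adjusted p = 0.00626) and 0.86 ± 0.25 between the times (edgeR adjusted p = 0.0353). Within batch 1133 and batch 1292 the change at 14 dpi against intact was 1.07 and 1.10; batch 1133 alone did not pass. The call between the times ended without any of 7 libraries (7 dpi replicates 2 to 5 and 14 dpi replicates 1, 3 and 4), with values of 0.67 to 1.04 over 9 omissions. The call against intact held in all 9 omissions (0.92 to 1.35) and ended without the batch term, at 1.02.

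**Figure D3:**
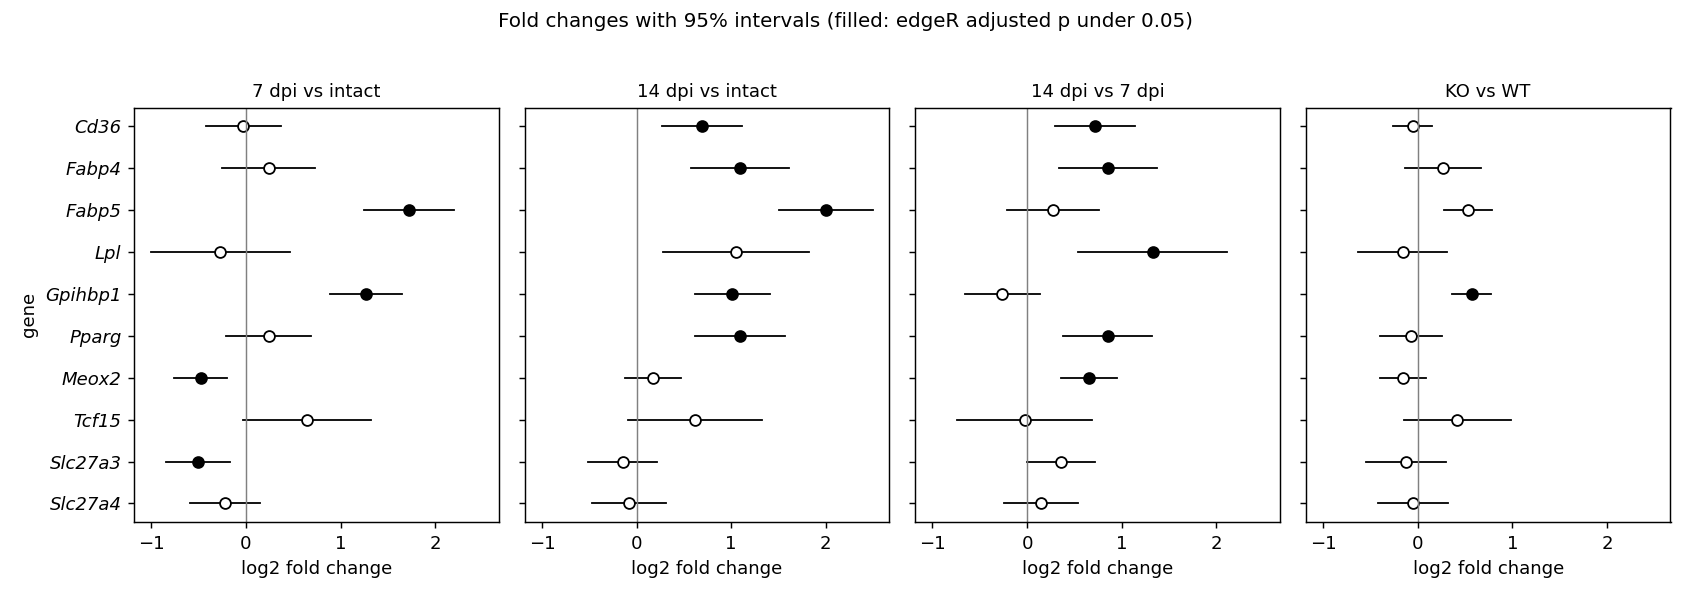
Log2 fold change of each gene (x axis) in the 4 comparisons; bars are 95% intervals and filled points passed the edgeR test at an adjusted p under 0.05. Fabp5 and Gpihbp1 stand at 1.73 and 1.27 at 7 dpi, Cd36, Fabp4 and Pparg are open at 7 dpi against intact and filled at 14 dpi, and Gpihbp1 is the 1 filled point of the KO comparison.

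Pparg followed the later pattern. The nuclear receptor gene was at 15.6, 34.1, 19.7, 28.9 and 15.9 CPM in intact nerve, then 25.7, 30.3, 31.9, 26.4 and 21.5 CPM at 7 dpi and 69.6, 46.2, 38.5 and 39.7 CPM at 14 dpi. Every library at 14 dpi was above every other Tomato library, while the intact and 7 dpi groups overlapped. Its log2 change was 0.24 (95% interval -0.21 to 0.69) at 7 dpi and 1.09 ± 0.22 (SE; edgeR adjusted p = 0.00351) at 14 dpi, or 2.13-fold. Between the times it was 0.85 ± 0.22 (edgeR adjusted p = 0.0229), a call that ended without 7 dpi replicate 1 or 14 dpi replicate 1 (0.65 to 0.91 over 9 omissions). The call at 14 dpi against intact held in all 9 omissions (0.89 to 1.26). With the 2 libraries of highest macrophage marker level left out, the value against intact was 1.15 and passed.

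Meox2, the homeodomain factor of capillary endothelium, moved down and back. It was at 440.3, 405, 529, 482 and 368 CPM in intact nerve, then 340.3, 320.3, 336, 315 and 285 CPM at 7 dpi and 421, 507, 581 and 489.6 CPM at 14 dpi. The 7 dpi group lay below both others without overlap, and the intact and 14 dpi groups overlapped. Meox2 fell by 0.48 ± 0.13 on the log2 scale (SE; edgeR adjusted p = 0.00984) at 7 dpi and rose by 0.65 ± 0.14 (edgeR adjusted p = 0.00671) from 7 to 14 dpi. At 14 dpi it differed from intact by 0.17 (95% interval -0.12 to 0.47). Both calls held with every library left out in turn. The fall at 7 dpi did not pass without the low-count filter, in batch 1133 alone or with the Y-linked covariate. Over the 14 Tomato libraries the Pearson correlation of Meox2 with the log2 summed level of 10 Schwann cell markers was 0.90. With that of 5 erythrocyte markers it was 0.74, and with that of 6 perineurial markers 0.72. The Schwann markers summed to 568 to 1029 CPM in intact, 170.3 to 267 at 7 dpi and 666 to 2484 at 14 dpi, and their part in the result was not tested. With the fibroblast and perineurial mean as a covariate, Meox2 was at -0.43 at 7 dpi, which passed, and at 0.55 between the times, which did not. Meox2 was at 274.9 to 356 CPM in the Cherry libraries, near the 285 to 340.3 CPM of Tomato cells at the same time. The Cherry libraries held less fibroblast and perineurial RNA. Their Schwann markers summed to 162.25 to 502.85 CPM in WT and 126.81 to 241.7 CPM in KO. Both ranges overlapped the 170.3 to 267 CPM of Tomato cells at 7 dpi. The Cherry experiment had no intact or 14 dpi group, so the fall and return of Meox2 were not tested there.

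Tcf15, the bHLH partner of MEOX2, was the least abundant of the 10 genes in intact nerve, with 73 to 345 counts per library. Its levels were 4.22, 4.29, 2.78, 11.7 and 4.90 CPM in intact nerve, then 12.1, 5.07, 4.37, 13.2 and 6.57 CPM at 7 dpi and 7.79, 5.63, 11.6 and 9.76 CPM at 14 dpi. All groups overlapped, and intact replicate 4 lay far above the other intact libraries. The log2 fold changes of 0.64 at 7 dpi (95% interval -0.036 to 1.32; edgeR adjusted p = 0.147) and 0.62 at 14 dpi (-0.092 to 1.33) did not pass. At 7 dpi the value passed without intact replicate 4 (0.91) and with the Y-linked covariate (1.16), and it was 0.30 without 7 dpi replicate 1. Between the times Tcf15 differed by -0.025 (-0.74 to 0.69).

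**Figure D4:**
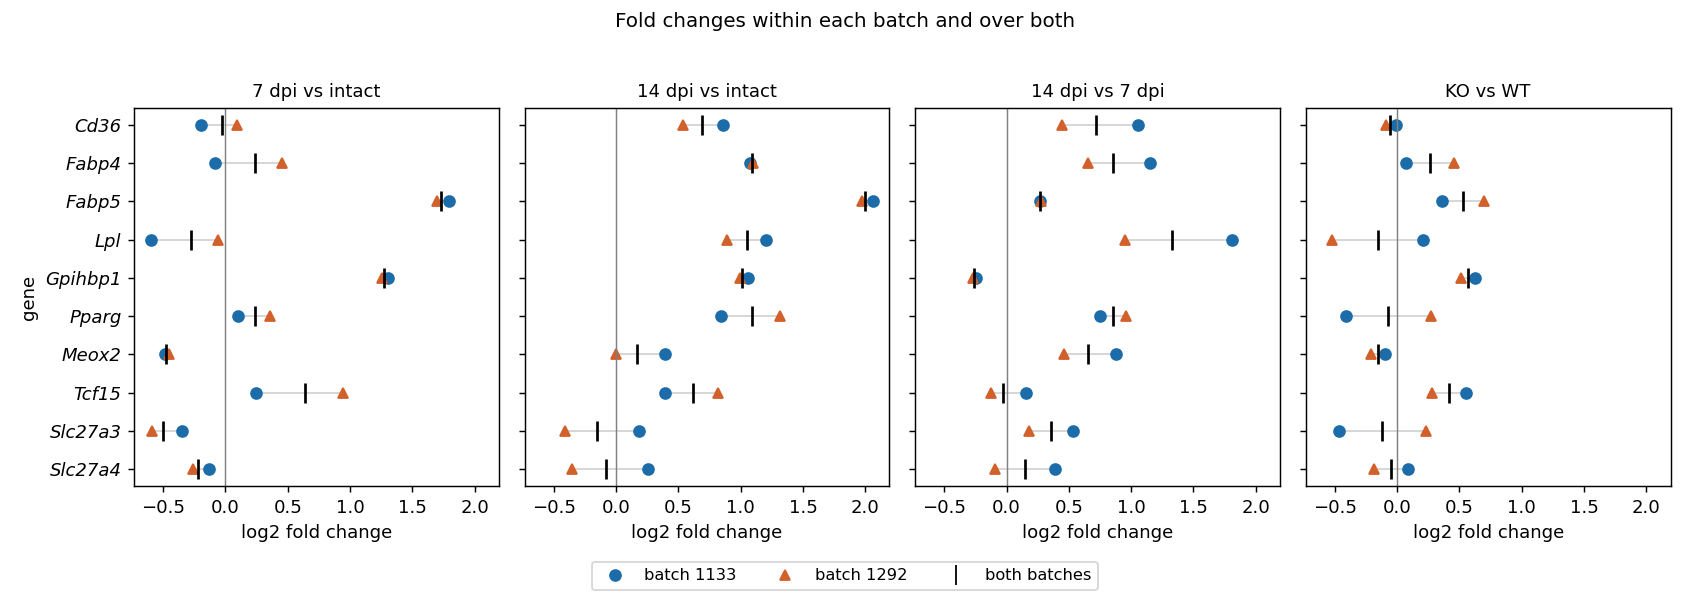
Log2 fold change of each gene (x axis) fitted in batch 1133 alone (circles), in batch 1292 alone (triangles) and in both with a batch term (black marks), for the 4 comparisons. The 2 batches nearly coincide for Fabp5 (1.79 and 1.70) and Gpihbp1 (1.30 and 1.26) at 7 dpi and stand on opposite sides of 0 for Cd36 and Fabp4 in that comparison.

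Deletion of Plxnd1, a semaphorin receptor of vessel patterning, was compared with WT at 7 dpi to see which genes depend on it. Only Gpihbp1 of the 10 passed, against 0.308% of 16227 tested genes called, 0.129% higher and 0.179% lower. Gpihbp1 was at 359, 373 and 217 CPM in WT replicates 1 to 3 and at 523, 351 and 319 CPM in KO replicates 1 to 3. The groups overlapped when pooled, but within each batch every KO library was above every WT library (batch 1292, 523 against 359 and 373 CPM; batch 1133, 351 and 319 against 217 CPM). The share of all genes ordered so within batches was not computed, and each batch held few libraries of a group. With batch in the model the rise of Gpihbp1 was 0.57 ± 0.10 on the log2 scale (SE, edgeR adjusted p = 0.0279), or 1.48-fold. The call ended when any 1 of the 6 libraries was left out, with values of 0.51 to 0.63, and without the batch term, where the value was 0.33. It passed with DESeq2, with library size as the only scaling, with no low-count filter and with the authors' batch-corrected counts. These settings called 241, 52, 230 and 550 genes in all, against 50 in the reported fit. Gpihbp1 was also higher in batch 1292 over the 6 Cherry libraries, by 0.70 (edgeR adjusted p = 0.0014), where 9.87% of genes differed by batch.

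Fabp5 was the next of the 10 in the KO comparison. It was at 151.5, 185 and 132.7 CPM in WT and 273, 159.6 and 181 CPM in KO libraries. Again every KO library was above every WT library within its batch, an order that was not counted over all genes. Fabp4 had the same order and Meox2 the full reverse, and neither passed (edgeR adjusted p = 0.598 and 0.619). The log2 fold change of Fabp5, 0.53 ± 0.12 (SE), had an unadjusted p of 7.0e-04 and an edgeR adjusted p of 0.115. Fabp5 passed with DESeq2, without the low-count filter and with the authors' batch-corrected counts. These settings called 241, 230 and 550 genes in all, against 50 in the reported fit. No gene of the 10 was separated by genotype with both batches pooled, where 11.8% of all genes were, 5.47% higher and 6.30% lower in KO.

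The other 8 genes did not pass between KO and WT. The 95% interval of the log2 fold change was narrow for Cd36 (-0.26 to 0.15) and Meox2 (-0.40 to 0.087). It was -0.13 to 0.66 for Fabp4, -0.63 to 0.31 for Lpl, -0.40 to 0.26 for Pparg, -0.15 to 0.99 for Tcf15, -0.55 to 0.30 for Slc27a3 and -0.42 to 0.33 for Slc27a4. Tcf15 varied most, from 6.70 to 19.01 CPM in WT and from 12.5 to 30.5 CPM in KO libraries, with the batch 1292 libraries low in both groups. The median over the 10 genes was -0.051, against -0.0096 over all tested genes.

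Levels in WT Cherry cells at 7 dpi are given beside those of Tomato cells at 7 dpi, as a description, since the experiments were sorted and normalized separately. Fabp5 averaged 156 ± 26.6 CPM (SD, n = 3) in WT and 147 ± 11.8 CPM (n = 5) in Tomato cells, and Gpihbp1 316 ± 85.9 and 312 ± 20.4 CPM. The WT Cherry and the 7 dpi Tomato libraries all stood above the intact Tomato libraries for both genes. The Cherry experiment had no intact group, so injury cannot be told apart there from reporter, sort and normalization. Cd36 averaged 1514 ± 175 CPM in WT Cherry and 1069 ± 388 CPM in Tomato cells, and Pparg 39.0 ± 1.27 and 27.2 ± 4.10 CPM. The WT Cherry Pparg range, 38.3 to 40.5 CPM, lay above the 7 dpi Tomato range of 21.5 to 31.9 CPM and overlapped that of 14 dpi. The share of all genes so separated was not computed. Summed pan-endothelial markers averaged 15073 CPM in WT Cherry and 11657 CPM in Tomato cells at 7 dpi, and fibroblast markers 1519 and 13694 CPM. The part of this difference in the levels of Cd36 and Pparg was not tested.

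Of 20 other genes of acyl transport and activation, 16 were tested, and 2 rose and 3 fell at 7 dpi, near the 15.7% and 16.3% of all tested genes. Mfsd2a, the lysophosphatidylcholine transporter of barrier endothelium, fell by 4.92 ± 0.46 on the log2 scale (SE), and the acyl-CoA synthetase gene Acsl6 fell by 3.09 ± 0.43. The transport protein Slc27a1 fell by 1.95 ± 0.21 and rose by 1.68 ± 0.22 from 7 to 14 dpi, while Slc27a2 (-2.54) did not pass at 7 dpi. The synthetases Acsl4 (1.25 ± 0.15) and Acsl5 (0.74 ± 0.15) rose at 7 dpi. At 14 dpi Scarb1, a lipoprotein receptor, was higher than in intact nerve by 0.86 ± 0.25. In that comparison 2 genes of the list rose and 2 fell, against 6.86% and 5.09% of all genes.

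Among 13 tested genes of lipoprotein lipolysis and lipoprotein receptors, 3 rose and 4 fell at 7 dpi, against 15.7% and 16.3% of all genes. Angptl4, a secreted inhibitor of lipoprotein lipase, rose by 1.05 ± 0.25 (log2, SE), and the hepatic lipase gene Lipc rose by 1.90 ± 0.56. The endothelial lipase Lipg was at -1.92 ± 0.91 and did not pass. The lipoprotein receptor gene Lsr (-2.78 ± 0.22) fell and was still lower at 14 dpi (-2.23 ± 0.23). Vldlr, the very low density lipoprotein receptor, rose by 1.64 ± 0.20 from 7 to 14 dpi after a fall at 7 dpi (-1.10 ± 0.19).

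Of 16 nuclear receptors and coregulators, 0 rose and 5 fell at 7 dpi (15.7% and 16.3% of all genes), and 0 rose and 1 fell at 14 dpi (6.86% and 5.09%). The coactivators Ppargc1a (-2.91 ± 0.30, SE) and Ppargc1b (-1.34 ± 0.39) fell at 7 dpi. Ppargc1a was at -1.82 ± 0.31 at 14 dpi, where Pparg was higher. The other PPAR genes did not pass at 7 dpi, with Ppara at -0.95 ± 0.55 and Ppard at -0.028 ± 0.38. Nr1h3, the liver X receptor alpha gene, rose by 1.16 ± 0.19 from 7 to 14 dpi. Of 13 tested PPAR target genes outside the 10, 2 rose and 3 fell at 7 dpi and 1 rose and 1 fell at 14 dpi, near the same shares of all genes. Pdk4, which spares glucose, fell by 1.91 ± 0.20 at 7 dpi. Hilpda, a lipid droplet protein also induced by hypoxia, rose by 1.13 ± 0.16.

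Of 15 tested lipid droplet and storage genes, 1 rose and 4 fell at 7 dpi, against 15.7% and 16.3% of all genes, with the droplet coat gene Plin2 at 0.087 ± 0.15 (SE), G0s2 at -1.65 ± 0.25 and Agpat2 at -1.18 ± 0.18. At 14 dpi only Hilpda was higher (0.68 ± 0.17) and 0 were lower, against 6.86% and 5.09% of all genes. Of 18 tested oxidation genes, 2 rose (Acads, 1.16 ± 0.16, and Slc25a20, 0.45 ± 0.16) and 2 fell (Acadm, -1.01 ± 0.15, and Eci1, -0.38 ± 0.14) at 7 dpi. Cpt1a, the rate-limiting carnitine transferase, was at 0.022 ± 0.17. The median of the oxidation list was 0.023 at 7 dpi and -0.0074 at 14 dpi, against -0.097 and 0.0047 over all tested genes.

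Of 8 capillary genes outside the 10, 1 rose and 5 fell at 7 dpi, against 15.7% and 16.3% of all genes, and 7 rose and 0 fell from 7 to 14 dpi, against 5.73% and 4.20%. Car4, the capillary carbonic anhydrase, was at -5.72 ± 0.37 (SE) at 7 dpi and -2.69 ± 0.35 at 14 dpi on the log2 scale. The capillary antigen Cd300lg was at -0.41 ± 0.18, which did not pass, and 0.63 ± 0.19, and the glycerol channel Aqp7 at -1.29 ± 0.28 and 0.58 ± 0.29. Rgcc was the 1 gene that rose at 7 dpi (1.55 ± 0.18). Timp4 fell by 3.05 ± 0.49 at 7 dpi and was higher in KO than in WT cells by 1.26 ± 0.23. Of 12 upstream signals of endothelial fatty acid uptake, 5 rose and 3 fell at 7 dpi, against the same 15.7% and 16.3%. Vegfb, a ligand that promotes this uptake, fell by 1.21 ± 0.20, its receptor gene Flt1 fell by 0.61 ± 0.13 and Epas1 by 0.77 ± 0.17. The apelin genes Apln (3.47 ± 0.20) and Aplnr (3.20 ± 0.23) rose, and Apln was also higher in KO cells, by 0.92 ± 0.16.

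Across the 14 Tomato libraries, which share normalization, batch and the differences between groups, the levels of some of the genes moved together. Pearson correlations of log2(CPM + 1) are descriptions and carry no p. Cd36 and Fabp4 correlated at 0.947, and at 0.839 once group and batch means were removed. Fabp5 and Gpihbp1 correlated at 0.92 and 0.76. Fabp4 and Fabp5 correlated at 0.60 over the libraries and at 0.88 after removal of those means, and Pparg with Cd36 at 0.775 and 0.724. Meox2 and Tcf15, whose proteins act as a pair, correlated at -0.012 and 0.21. Of 10305 genes above an average log2 CPM of 3, Fabp4 was the most like Cd36, followed by Tmcc3 (0.90). The most like Fabp5 was the chemokine gene Ccl2 (0.97), and the most like Gpihbp1 was Arpc3 (0.99), an actin branching subunit. Art3 was the most like both Lpl (0.88) and Pparg (0.88), and Nck1 the most like Fabp4 (0.955). Meox2 was most like Pmp22 (0.92), a myelin gene of the Schwann marker list. Zfp580 was most like Tcf15 (0.91), Dguok most like Slc27a3 (0.92) and Tmem248 most like Slc27a4 (0.96). The library intact replicate 5 had the lowest level in its group for 7 of the 10 genes and also the lowest pan-endothelial sum of all 14, 6536 CPM. The library 7 dpi replicate 5 was lowest in its group for 7 genes as well, with the lowest pan-endothelial sum of that group, 9612 CPM.

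By position (GRCm38, as the deposited tables give them), the genes lie on 7 chromosomes. Fabp4 (chr3:10204088-10208576, minus strand) and Fabp5 (chr3:10012548-10016607, plus strand) lie in the same fatty acid binding protein cluster. Slc27a3 (chr3:90385239-90389927, minus strand) is on that chromosome too. Slc27a4 (chr2:29802634-29817522) and Tcf15 (chr2:152143561-152149097) share chromosome 2. The others are Cd36 (chr5:17781690-17888747, minus strand), Lpl (chr8:68880491-68906934), Gpihbp1 (chr15:75596628-75599481), Pparg (chr6:115360951-115490399) and Meox2 (chr12:37108540-37179534). No exon of another gene overlapped an exon of the 10 in the GENCODE M21 annotation, and the values are counts over all transcripts of a gene. Fabp4 and Fabp5, though of the same cluster, differed in time: at 7 dpi they were at 0.24 and 1.73 on the log2 scale.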

How the data were processed

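Endothelial cells sorted by reporter were profiled by polyA bulk RNA-seq. The authors deposited raw counts per gene and, for the Cherry experiment, counts after ComBat-Seq batch correction; the submitters' processing notes name Trimmomatic 0.39, STAR 2.5.3a, featureCounts 1.6.4 and Cell Ranger 3.0.2, and mm10. Annotation release and strand setting: not given in the sources used here. Gene lengths, used for levels per kb, were taken as other values of the deposited tables.

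The 10 genes and all lists were chosen with earlier results of these data known. Genes were filtered with filterByExpr (minimum count 10), scaled by TMM and tested with edgeR 4.0.16 (robust quasi-likelihood F test, R 4.3.3) with batch as a term. All 14 Tomato libraries shared 1 fit and the 6 Cherry libraries another. Benjamini-Hochberg adjustment ran over 20409 and 16227 genes, with calls at an adjusted p under 0.05. SE is the absolute log2 fold change over the square root of F, and intervals are 95%. Replicate libraries differed beyond sampling noise (chi-square per degree of freedom 15.4 to 121.02 over 32 pairs). The test was checked on simulated data. Alternatives were DESeq2 1.42.0, library size scaling, no filter, no batch term, each batch alone, only the groups compared, marker covariates, the corrected Cherry counts and each library left out; leaving out the 2 libraries of highest macrophage marker level was added after seeing the data.

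The text names all 10 genes, Plxnd1, the first 2 symbols of pathway and marker lists with up to 2 called rises and 2 called falls per comparison (average log2 CPM of at least 1), and the genes most correlated with each of the 10. Further list members are named to complete a count, and some results for list genes are not reported here.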

Additional observations from a re-analysis of the deposited data

Results flagged for a closer look

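Between the injured times, the difference from intact nerve changed for 5 genes, tested as the contrast of 14 with 7 dpi with edgeR. On the log2 scale the difference at 14 dpi minus that at 7 dpi was 0.72 for Cd36, 0.86 for Fabp4, 1.33 for Lpl, 0.85 for Pparg and 0.65 for Meox2. Tcf15 in intact replicate 4 was at 11.7 CPM, far from the other 4 intact libraries (2.78 to 4.90 CPM). It was the 1 such library among 30 sets of a gene and a group examined, and chance gives about 1 in 20.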

How the results depend on the processing

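Of the values of the 10 genes under all alternatives, 0 reversed a call's direction. The reported fit called 4 of the 10 at 7 dpi, 5 at 14 dpi against intact, 5 between the times and 1 between KO and WT. At 7 dpi, 2 were called without the low-count filter and 1 in batch 1133 alone, and the genes called, 6535, became 2042 in batch 1133 and 4122 with the Y-linked covariate. At 14 dpi against intact, 3 were called without the batch term and 1 in batch 1133, and the genes called, 2439, became 795 in batch 1133 and 1500 in batch 1292. Between the times, 1 was called without the batch term and 1 with the Y-linked covariate, and 0 in batch 1133, in batch 1292, with the fibroblast and perineurial covariate, and without the 2 libraries of highest macrophage marker level. The genes called, 2027, became 3255 with DESeq2, 1226 without the batch term, 366 in batch 1133, 726 in batch 1292, 184 with the fibroblast and perineurial covariate and 908 without those 2 libraries. Between KO and WT, 2 were called with DESeq2, without the filter and with the ComBat-Seq counts, and 0 without the batch term or in either batch alone. The genes called, 50, became 241 with DESeq2, 230 without the filter, 5 without the batch term, 31 in batch 1292 and 550 with the ComBat-Seq counts. With the fibroblast and perineurial covariate the change between the times reversed for Ppargc1a (-0.038). Fewer libraries entered the fits within a batch; for the other settings the cause was not tested.

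With 1 library left out at a time, 3 to 5 of the 10 and 5808 to 6748 genes were called at 7 dpi, 4 to 6 and 1784 to 2617 at 14 dpi against intact, 2 to 5 and 1305 to 1901 between the times, and 0 and 6 to 40 between KO and WT. No paired analysis was possible because the labels give no replicate number shared between groups. Sample titles carry running numbers, but no label says that neighbouring numbers share animals or a day, so they were not used as pairs.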

Other observations

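Ratios of levels per kb between partner genes within a library need no scaling between libraries, and are given without a test. Fabp4 exceeded Fabp5 by 20.3 to 43.1 times in intact nerve, 6.06 to 14.9 times at 7 dpi and 11.04 to 18.6 times at 14 dpi, so the intact range did not overlap either injured range. In the Cherry libraries the ratio was 12.4 to 17.5 in WT and 9.90 to 13.1 in KO. The ratio of Lpl to its anchor Gpihbp1 was 0.0877 to 0.199 in intact nerve and 0.0208 to 0.0670 at 7 dpi, without overlap, and 0.0541 to 0.267 at 14 dpi, overlapping both. In WT and KO Cherry libraries it was 0.0344 to 0.0554 and 0.0208 to 0.0415. How many other gene pairs were so separated was not computed. Fabp5 and Gpihbp1, the lower terms of these ratios, were called higher at 7 dpi, while Fabp4 and Lpl were not called. The ratios at 7 dpi therefore restate those changes and are not separate evidence.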
